A study of Mus musculus with 42 samples.

Results

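The interferon-stimulated genes described here are 42 mouse genes listed by name as induced by interferon, out of 54353 genes counted in all bulk RNA-Seq libraries. All 42 were found in the bulk counts by their symbols, and 40 were followed in the single-cell matrix of 35237 genes, where Gbp2 and Oas3 were not analysed. They were taken by name, with no threshold on their values. They were measured in 34 bulk libraries, 2 per group, and in 1 pooled set of single cells, out of 42 samples in the series. Libraries of chromatin accessibility were not analysed here.

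All cells came from the uterus of wild-type mice, C57BL/6 females aged 8 to 12 weeks by the study's methods. Tissue-resident natural killer (trNK) cells, sorted as CD45+NK1.1+NKp46+CD49a+CXCR6-, were compared between virgin mice, gestation day 6.5 (gd6.5) and gd8.5. At gd8.5 the same gate was also divided by the surface proteins CD55 and 4-1BB into trNK-V (low for both), trNK-D (intermediate) and trNK-T (high for both). In a 72 h culture, live NK1.1+ cells were collected without IL-21, with 20 ng/ml IL-21 for 3 days, or with 20 ng/ml IL-21 and 1 µM of Stattic, a STAT3 inhibitor (iSTAT3), for 3 days. The Stattic dose is that of the labels, and the study's methods print it in mM. In a time course, trNK cells isolated at gd6.5 were kept in 10 ng/ml IL-15 with or without 20 ng/ml IL-21 and collected at 0, 6, 24 and 72 h. The study describes the cells of both cultures as trNK-V sorted at gd6.5, and its methods give IL-15 in the medium. The single cells were all CD45+NK1.1+NKp46+ cells of pooled virgin and gd8.5 uteri, mixed before capture, and the matrix gives no tag for the animal group of a cell. The labels do not tie the 2 libraries of a group to separate animals, so the p-values below measure the spread between libraries, which may be technical.

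Interferons act through a short relay from the cell surface to the promoter. Type I interferons bind the receptor chains IFNAR1 and IFNAR2, whose kinases JAK1 and TYK2 phosphorylate STAT proteins. With IRF9 these form a complex that binds a repeated GAAA element, whereas interferon gamma, a major product of NK cells, acts mainly through paired STAT proteins on TTC and GAA palindromes. IRF1 and IRF7 amplify the response, and USP18 and SOCS1 end it. The induced genes encode sensors of foreign nucleic acid, enzymes that block viral replication, GTPases that attack pathogen vacuoles and components of the ISG15 conjugation system. In the pregnant mouse uterus, NK cells and their interferon gamma are known for the remodelling of the spiral arteries.

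Both elements were found among the promoters of the members, but not in every promoter. RefSeq promoter entries on GRCm38.p6 were matched to 32 of the 42 genes, and the 250 bases before each start were searched on both strands for a GAAA repeat (GAAA, 2 bases of any kind and GAAA again), the core of the element bound by the complex of STAT proteins and IRF9, and for TTCNNNGAA, the STAT palindrome, with overlapping matches counted. The GAAA repeat was in 17 of the 32 members (53.1%) and in 936 of all 27025 promoters (3.46%). TTCNNNGAA was in 9 members (28.1%) and in 2197 of all promoters (8.13%). The 60-base stretches below belong to members whose values the comparisons turn on and, for Ifit3 and Ifit3b, to a pair of neighbouring copies that reads may not separate. Each is written 5′ to 3′ on the strand of its gene. Capitals mark the GAAA repeats, read on either strand, and in Irf1 the STAT palindrome. The Igtp stretch also holds a STAT palindrome, 36 bases before the start and left in lower case. In Oas1a, on chromosome 5, 2 overlapping matches end 4 bases before the start, whereas in Isg15, on chromosome 4, 3 overlapping matches end 56 bases before it. Irf1, the last shown, has the STAT palindrome and no GAAA repeat in this window.
Oas1a, chr5:120907526-120907585, minus strand: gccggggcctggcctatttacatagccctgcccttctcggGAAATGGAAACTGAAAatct
Irgm1, chr11:48871421-48871480, minus strand: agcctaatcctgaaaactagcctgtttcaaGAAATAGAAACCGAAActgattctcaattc
Igtp, chr11:58199496-58199555, plus strand: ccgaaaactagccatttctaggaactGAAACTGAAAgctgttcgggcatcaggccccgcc
Gbp2, chr3:142620579-142620638, plus strand: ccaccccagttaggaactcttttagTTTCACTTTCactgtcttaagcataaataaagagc
Trim30a, chr7:104465195-104465254, minus strand: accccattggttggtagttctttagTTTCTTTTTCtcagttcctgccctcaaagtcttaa
Isg15, chr4:156200856-156200915, minus strand: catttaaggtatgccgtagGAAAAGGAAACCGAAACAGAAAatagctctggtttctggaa
Ifit3, chr19:34583365-34583424, plus strand: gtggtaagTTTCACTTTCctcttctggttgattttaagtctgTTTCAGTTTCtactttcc
Ifit3b, chr19:34607761-34607820, plus strand: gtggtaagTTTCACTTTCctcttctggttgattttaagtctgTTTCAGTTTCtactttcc
Irf1, chr11:53769899-53769958, plus strand: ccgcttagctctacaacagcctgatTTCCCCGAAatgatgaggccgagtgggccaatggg

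Only Bst2, Gbp5, Gbp7, Igtp and Oas1a held both motifs in this window. Of the members named most below, Irf7, Irf9 and Xaf1 held neither motif there. Cmpk2, Dtx3l, Herc6, Ifi44, Ifih1, Oasl1, Oasl2 and Slfn1 also held neither. Rtp4, Usp18, Zbp1, Ifi27l2a, Parp9, Parp14, Mx1, Mx2, Oas2 and Iigp1 had no promoter entry. A match is a string of letters and was not tested for binding.

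The bulk libraries held 11861343 to 66462748 counts, and no 2 of them held identical counts. Levels are given as RPKM, reads scaled to gene length and library size, in the order of the libraries 1 and 2 of a group. A gene was tested where its RPKM exceeded 10 in both libraries of any group of the experiment, and it was called at an adjusted p below 0.05 (edgeR, quasi-likelihood test, Benjamini-Hochberg over all genes tested) and a fold change above 2. This edgeR test gives no standard error. The SE printed with a log2 fold change is its absolute value divided by the square root of the F statistic. The gate was checked against its defining genes. The summed RPKM of Ncr1, Klrb1c, Eomes and Itga1 was 644 to 1390 in the sorted libraries. RNA of genes listed for other cell types was not absent from these libraries. The 7 T cell genes summed to 35.5 to 293 RPKM, led by genes other than Cd4 and Cd8a. Cd3e among them was at 0 in the virgin and trNK-T libraries. The 4 B cell genes summed to 0 to 18.2 RPKM, with Ms4a1 at 0. Whether this RNA came from other cells was not tested. In trNK-D library 2 the plasma cell gene Jchain reached 1698 RPKM, and the dendritic cell gene Cd209a reached 70.05 RPKM in trNK-V library 1 and 147.3 RPKM in trNK-D library 1. In bulk RNA, fewer cells of a type and less RNA per cell cannot be told apart.

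At gd6.5, interferon-stimulated genes of every role stood below their level in virgin trNK cells. Among the 36 members with a mean above 1 RPKM in this experiment, both gd6.5 libraries lay below both virgin libraries for 33, against 21.6% of all genes at this level. None lay above, against 29.2% of all genes. Dtx3l, Gbp3 and Gbp5 overlapped, and the remaining 6 (Ifit3b, Iigp1, Mx2, Oas2, Oasl2 and Slfn5) had a mean below 1 RPKM. The summed RPKM of all 42 members was 916 and 850 in virgin cells, 326 and 401 on gd6.5 and 529 and 556 on gd8.5. The number of members above 1 RPKM went from 36 in each virgin library to 26 and 27 at gd6.5 and to 32 and 33 at gd8.5.

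Of the 42 members, 18 entered the test, and 8 were called lower at gd6.5 and none higher. In this comparison 6.17% of all genes tested were called, and 3.0% were called lower. All 18 tested members had a negative log2 fold change, with a median of -1.24 against -0.02 over all 4504 genes tested. Gbp2, Parp9 and Zbp1 entered the test through the virgin libraries alone. Ifi27l2a, Irf9, Irgm1, Rtp4, Trim30a and Xaf1 entered through the virgin and gd8.5 libraries. Of the 8 called members, only Irf7, Oas1a and Usp18 passed the filter in every group. These counts thus hold genes that were bound to be low at gd6.5. The counts and the p-values of such genes below are a description.

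**Figure D1:**
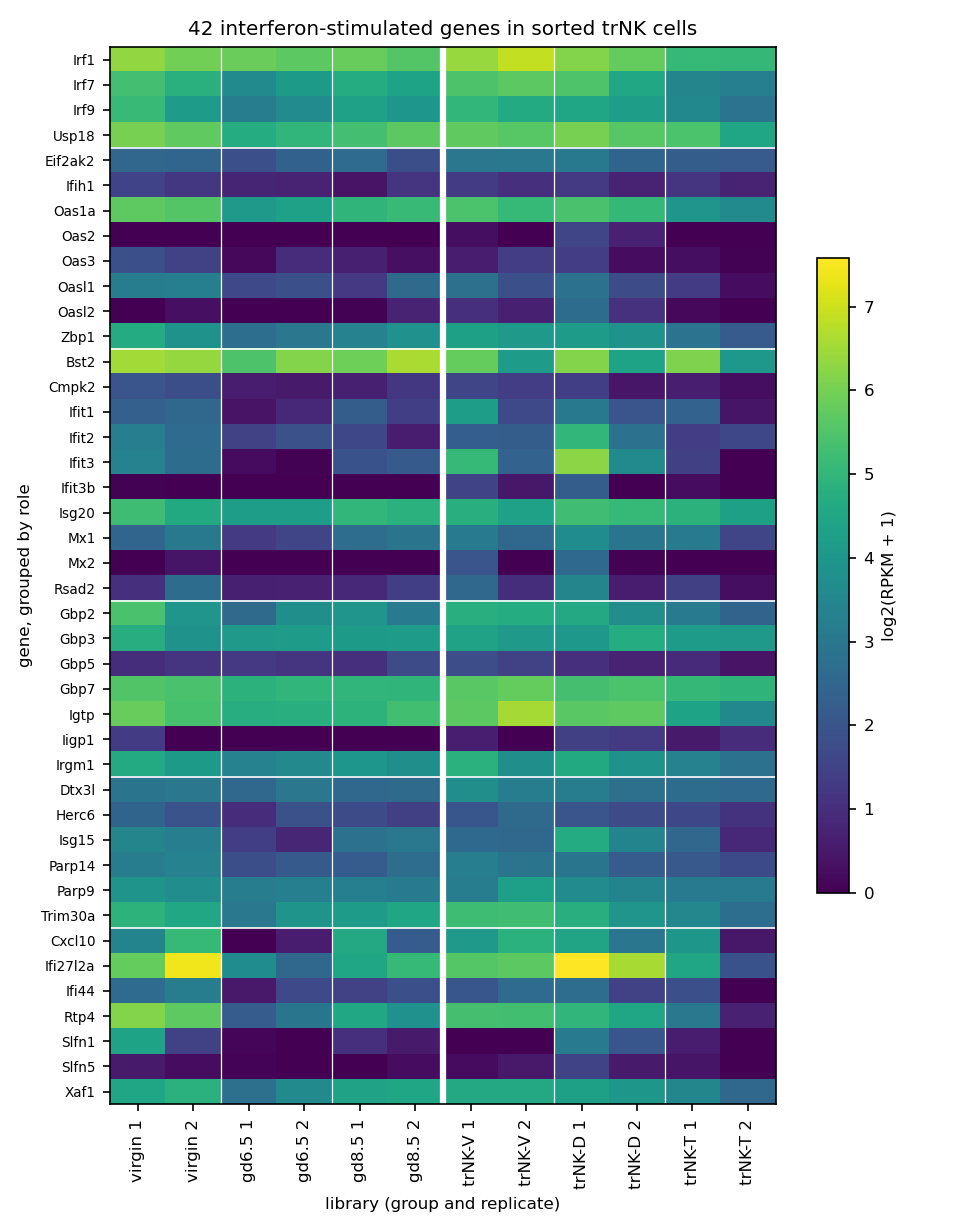
Level of each of the 42 interferon-stimulated genes as log2(RPKM + 1), by colour, in the 12 libraries of the gestation comparison and of the sorted gd8.5 subsets. Genes are grouped by role from the transcription factors at the top to other members at the bottom, and the gd6.5 and trNK-T columns are darker than the virgin and trNK-V columns for most genes.

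Irf7 and Usp18, which amplify and end the response, were among the members called lower. Irf7, the regulator that sustains type I interferon responses, was at 38.8 and 26.9 RPKM in virgin cells, 11 and 16.5 on gd6.5 and 25 and 20.2 on gd8.5. Its gd6.5 libraries were the lowest and did not overlap with the others, and it fell by 1.34 on the log2 scale at gd6.5 (SE 0.286, edgeR adjusted p = 0.0402). Usp18, the protease that removes ISG15 and silences the type I receptor, went from 64.3 and 52.5 RPKM to 25.1 and 30.9 and then stood at 39.1 and 49.8. It fell by 1.15 at gd6.5 (SE 0.219, edgeR adjusted p = 0.0332). Irf1, the other abundant factor, differed less. It was at 81.3 and 61.7 RPKM in virgin cells, 56.6 and 49.7 on gd6.5 and 55.7 and 45.7 on gd8.5, and its log2 fold change at gd6.5 of -0.51 (SE 0.194, edgeR adjusted p = 0.129) did not pass. Irf9, the DNA-binding partner of STAT proteins, was at 34.4 and 17.1 RPKM against 7.99 and 11.7 at gd6.5, with a log2 fold change of -1.48 that did not pass (SE 0.377, edgeR adjusted p = 0.057).

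The largest differences among tested members were those of Rtp4 and Ifi27l2a. Rtp4 (chr16:23520291-23614222, GRCm38), a chaperone of membrane receptors that also restrains RNA viruses, was at 70.4 and 50.9 RPKM in virgin cells, 3.58 and 6.63 at gd6.5 and 22 and 13.3 on gd8.5. The 3 groups did not overlap, and Rtp4 fell by 3.66 on the log2 scale at gd6.5 (SE 0.421, edgeR adjusted p = 0.0255). Ifi27l2a (chr12:103442167-103443680), a small membrane protein, was at 54.2 and 169 RPKM in virgin cells, 11.9 and 4.79 on gd6.5 and 20.8 and 32.7 on gd8.5, and fell by 3.81 at gd6.5 (SE 0.722, edgeR adjusted p = 0.0328). Its virgin libraries lay far apart, and both were above all pregnant libraries.

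Among the sensors, Oas1a, which makes the second messenger that activates RNase L, was at 50.6 and 45.4 RPKM in virgin cells, 15.7 and 19.4 on gd6.5 and 30.2 and 33.1 on gd8.5. Its groups did not overlap, and it fell by 1.54 at gd6.5 (SE 0.209, edgeR adjusted p = 0.0288). Zbp1, a sensor of Z-form nucleic acid that can start necroptosis, was at 24.2 and 13.6 RPKM against 5.71 and 6.97 at gd6.5 and fell by 1.66 (SE 0.36, edgeR adjusted p = 0.0414). The weaker sensors were near or below 10 RPKM and were not tested. Oasl1, an inhibitor of Irf7 translation, was at 8.14 and 8.64 in virgin cells and at 2.22 and 2.59 at gd6.5, and Eif2ak2, the RNA-activated kinase PKR, was at 4.62 and 4.53 against 2.59 and 4.15.

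The antiviral effectors were split between abundant and scarce members. Bst2, the tetherin that holds budding virus at the membrane, was at 91.9 and 82.0 RPKM in virgin cells, 43.1 and 71.8 on gd6.5 and 58.7 and 96.8 on gd8.5. Its difference at gd6.5 of -0.69 on the log2 scale did not pass (SE 0.34, edgeR adjusted p = 0.212). Isg20, an exonuclease of single-stranded RNA, was at 36.6 and 23.4 RPKM against 18.0 and 17.6, and at 31.6 and 27.4 at gd8.5. The classical effectors were scarcer in this experiment. Ifit3, which binds foreign RNA together with Ifit1, was at 9.35 and 5.45 RPKM in virgin cells, 0.176 and 0.0296 on gd6.5 and 2.73 and 3.42 on gd8.5. Ifit1 was at 3.97 and 4.8, then 0.33 and 0.777, then 3.74 and 1.63. Both genes had their lowest values in the gd6.5 libraries, with no overlap with the virgin libraries. Isg15, the ubiquitin-like modifier, showed the same order with 10.0 and 8.36 RPKM in virgin cells, 1.63 and 0.75 on gd6.5 and 6.13 and 7.25 on gd8.5. None of these 3 genes passed the expression filter. Oas2 was at 0 RPKM in all 6 libraries.

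The interferon-inducible GTPases differed among themselves. Irgm1, a regulator of the vacuolar GTPases and of autophagy, was at 23.6 and 16.6 RPKM in virgin cells and 9.24 and 10.8 at gd6.5, and fell by 1.09 (SE 0.232, edgeR adjusted p = 0.0402). Igtp, of the same family, was at 55.2 and 40.8 against 25.2 and 26.6 RPKM, with a log2 fold change of -0.98 that did not pass (SE 0.237, edgeR adjusted p = 0.0531). Gbp7, a guanylate-binding protein, was at 44.5 and 41.1 RPKM against 28.1 and 30.8. Its adjusted p of 0.0453 (edgeR) was below the threshold, but its log2 fold change of -0.63 (SE 0.14) was less than 2-fold. Gbp3 was at 25.3 and 13.7 against 16.3 and 16.9, and its groups overlapped. Gbp2, which helps to open pathogen vacuoles, was at 41.4 and 14.4 RPKM in virgin cells against 5.09 and 12.8 at gd6.5, and its log2 fold change of -1.74 did not pass (SE 0.658, edgeR adjusted p = 0.129). Of the remaining called members, Xaf1, which counters the apoptosis inhibitor XIAP, was at 21.6 and 27.4 RPKM in virgin cells, 5.89 and 11.3 on gd6.5 and 19.5 and 21.3 on gd8.5 and fell by 1.60 at gd6.5 (SE 0.327, edgeR adjusted p = 0.0376). Cxcl10, the chemokine that attracts CXCR3+ lymphocytes, spread widely between libraries, with 9.66 and 32.7 RPKM in virgin cells, 0 and 0.504 on gd6.5 and 22.9 and 3.6 on gd8.5.

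The members that attach or erase protein modifications lay at low to middle levels. Parp9, a mono-ADP-ribosyltransferase that works in a complex with the ubiquitin ligase Dtx3l, was at 14.2 and 12.1 RPKM in virgin cells, 8 and 8.66 on gd6.5 and 8.59 and 7.87 on gd8.5. Dtx3l was at 6.59 and 7.01, then 4.91 and 7, then 4.79 and 5.16, and its virgin and gd6.5 libraries overlapped. Parp14, of the same family as Parp9, was at 8.28 and 9.2, then 2.54 and 3.44, then 3.6 and 5.5, with both pregnant groups below the virgin libraries. Herc6, the mouse ligase for ISG15, was at 4.48 and 2.84 RPKM in virgin cells and 0.949 and 2.67 at gd6.5. Trim30a was at 28.9 and 22 against 7.26 and 14.1, and its log2 fold change of -1.34 did not pass (SE 0.346, edgeR adjusted p = 0.0577).

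Several members below the expression filter also had both gd6.5 libraries under both virgin libraries. Mx1, a dynamin-like GTPase that traps viral capsids, was at 4.59 and 7.28 RPKM in virgin cells, 1.46 and 2 on gd6.5 and 5.58 and 6.52 on gd8.5, so that its gd8.5 libraries lay within the virgin range. Ifi44, of unknown biochemical role, was at 5.22 and 8.18, then 0.437 and 2.19, then 1.82 and 2.63. Cmpk2, a mitochondrial nucleotide kinase next to Rsad2 in the genome, was at 3.01 and 2.52, then 0.506 and 0.471, then 0.586 and 1.36. Slfn1, a regulator of T cell quiescence, was high in a single virgin library, at 20.1 and 1.83 RPKM, against 0.0942 and 0 at gd6.5.

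The calls at gd6.5 depended on the libraries and the fit. Without gd6.5 library 1, or without gd6.5 library 2, none of the members was called, and likewise with the gd8.5 libraries left out of the fit or with the replicate number as a block, against 11 by DESeq2 with all libraries. Of all 4504 genes, 0 were called in the first 3 of these fits, 2 with the block and 462 by DESeq2. Without virgin library 1 the count was 6 members (454 genes), and without virgin library 2 it was 13 (785 genes). Across the same groups the summed RPKM of 7 T cell genes was 59.8 and 293 in the virgin libraries, 61.1 to 74.2 at gd6.5 and 184 to 190 at gd8.5, with Cd4 at 0 in all 6. That of 6 macrophage genes was 16.6 to 25.6, then 8.62 to 9.82, then 17.5 to 17.6. That of 5 neutrophil or monocyte genes was 185 to 291, then 120 to 163, then 132 to 147, with Retnlg and S100a9 at 0 in all 6. At gd6.5 only Ccr2 of these 5 genes had counts. That of 4 erythrocyte genes was 12.8 to 222, then 0, then 0.251 to 840. That of the 4 trNK genes was 1220 to 1240, then 710 to 741, then 922 to 933, and Ncr1 among them was called lower at gd6.5. The part of these shifts in the result was not tested.

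At gd8.5 more members stood above their gd6.5 level than below it, and more below their virgin level than above it. Both gd8.5 libraries lay above both gd6.5 libraries for 21 of the 36 members compared and below them for none, against 25% and 30.8% of all genes. Compared with virgin cells, both lay below for 26 and above for none, against 18.8% and 21.9%. No member was called by edgeR in either comparison, where 0.0% of all genes were called between gd8.5 and gd6.5 and 0.422% between gd8.5 and virgin. At an unadjusted p below 0.05 there were 8 of the 18 members in each, among 1071 genes against gd6.5 and 638 against virgin cells. DESeq2 called 2 members in each, Rtp4 in both, among 221 and 164 genes. The median log2 fold change of the 18 tested members was 0.72 against gd6.5 (0.01 over all genes) and -0.60 against virgin cells (0.00 over all genes). These comparisons share libraries and are not independent. Rtp4 differed from virgin cells at gd8.5 by -1.84 on the log2 scale (SE 0.389, edgeR adjusted p = 0.138), and Xaf1 by -0.33 (SE 0.318, edgeR adjusted p = 0.648). Without virgin library 2 the count against virgin cells was 4, among 481 genes.

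**Figure D2:**
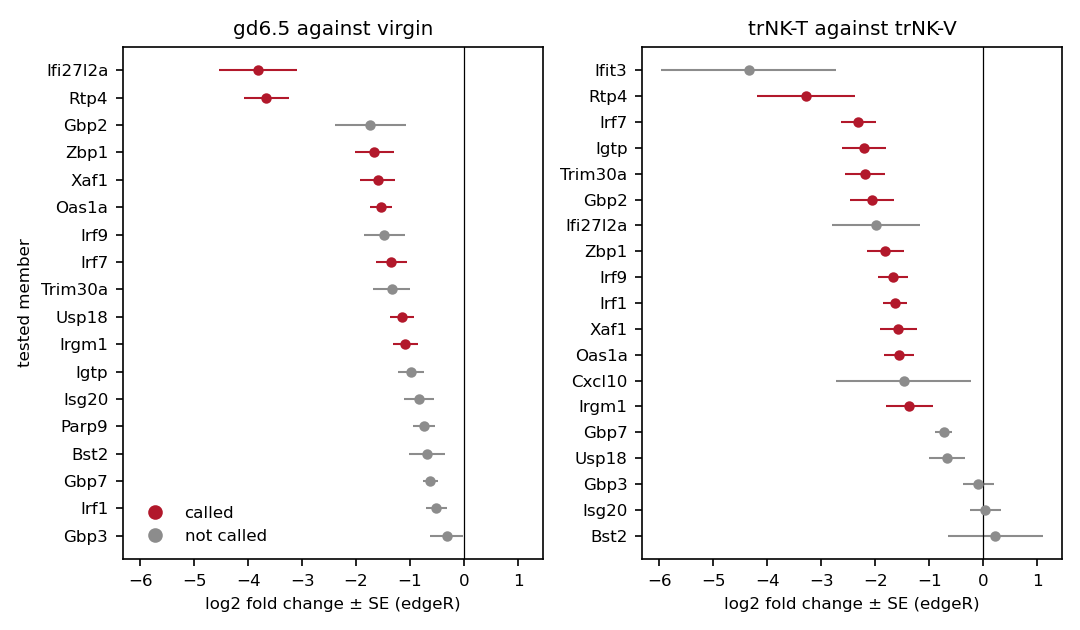
Fitted log2 fold change (edgeR) of each tested member with its SE, derived from the F statistic. The left panel shows gd6.5 against virgin cells and the right panel trNK-T against trNK-V cells, with called members in red. All 18 points on the left lie below 0, and of the 19 on the right those of Isg20 and Bst2 lie just above 0.

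Within the gd8.5 uterus, the members were lowest in trNK-T cells. Of the 38 members with a mean above 1 RPKM in the sorted subsets, both trNK-T libraries lay below both trNK-V libraries for 29 and above them for none. Over all genes at this level the shares were 38.4% and 25.2%. Against trNK-D the counts were 27 and 0, with 28.7% and 21.2% over all genes. The summed RPKM of the 42 members was 819 and 783 in trNK-V, 1040 and 613 in trNK-D and 415 and 225 in trNK-T.

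In trNK-T against trNK-V, 11 of 19 tested members were called lower and none higher. Calls were common in this comparison, with 21.2% of all genes tested called and 13.1% called lower. The median log2 fold change of the tested members was -1.64. Cxcl10 entered the test through trNK-V alone, Ifit3 through trNK-D alone and 9 others through both. Of the 11 called members, only Oas1a, Irf1 and Igtp passed the filter in every subset. These counts, and the p-values of the other called members below, again describe genes that were expressed outside trNK-T. Against trNK-D, where 1.75% of all genes were called and 1.41% were called lower, 2 members were called lower, and all 19 tested members had a negative fold change with a median of -1.26. This count was 10 by DESeq2 (326 genes), 7 with a replicate block (151 genes) and 0 by limma-voom (61 genes), with the mean filter (37 genes) and with only the compared groups in the fit (30 genes). None of the 19 was called between trNK-D and trNK-V, where 0.32% of all genes were called. At an unadjusted p below 0.05 there were 2, Irf1 and Trim30a, among 939 genes, and DESeq2 called 0 members and 187 genes.

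Of the transcription factors, Irf7, Irf1 and Irf9 were called lower in trNK-T. Irf7 was at 43.4 and 49.9 RPKM in trNK-V, 43.8 and 22.4 in trNK-D and 9.96 and 8.75 in trNK-T. Both trNK-T libraries lay below the rest, and Irf7 fell by 2.31 on the log2 scale against trNK-V (SE 0.317, edgeR adjusted p = 0.00477) and by 1.83 against trNK-D (SE 0.312, edgeR adjusted p = 0.0464). Irf1 went down in order, from 83.2 and 117 RPKM in trNK-V to 70.7 and 54.4 in trNK-D and 32.4 and 31.8 in trNK-T. It fell by 1.64 in trNK-T against trNK-V (SE 0.223, edgeR adjusted p = 0.00458), while its difference between trNK-D and trNK-V of -0.67 did not pass (SE 0.218, edgeR adjusted p = 0.183). Irf9 was at 31.2 and 23.8, then 20.8 and 17.9, then 10.7 and 6.42 RPKM, and fell by 1.68 in trNK-T against trNK-V (SE 0.28, edgeR adjusted p = 0.00783). Usp18 was at 52.4 and 48.3, then 64.3 and 47.7, then 42.2 and 20.8 RPKM, a log2 fold change of -0.67 in trNK-T that did not pass (SE 0.328, edgeR adjusted p = 0.15).

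Of the sensors and GTPases, Oas1a was at 42.3 and 32.6 RPKM in trNK-V, 41.5 and 31.9 in trNK-D and 14.4 and 11 in trNK-T. Its trNK-V and trNK-D libraries overlapped, and it fell in trNK-T by 1.56 against trNK-V (SE 0.272, edgeR adjusted p = 0.00882) and by 1.54 against trNK-D (SE 0.271, edgeR adjusted p = 0.0472). Igtp was at 49.6 and 92.9, then 48.9 and 50.6, then 20.2 and 10.5 RPKM, and fell by 2.21 against trNK-V (SE 0.405, edgeR adjusted p = 0.00999). Gbp2 was at 26.0 and 24.6, then 22.8 and 12.5, then 7.7 and 4.36, and fell by 2.06 (SE 0.405, edgeR adjusted p = 0.0125). Gbp3, its neighbour on chromosome 3, was at 19.6 and 16.2, then 15.3 and 24.7, then 17.1 and 16.3 RPKM, and its 3 groups overlapped. Gbp7 was at 49.3 and 53.9 RPKM in trNK-V and 32.1 and 29.7 in trNK-T, a log2 fold change of -0.74 (SE 0.151, edgeR adjusted p = 0.0142) that was less than 2-fold.

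Rtp4 was the called member with the largest difference, at 39.5 and 38.3 RPKM in trNK-V, 30.5 and 20.8 in trNK-D and 7.26 and 0.633 in trNK-T. It fell by 3.28 against trNK-V (SE 0.908, edgeR adjusted p = 0.0333). The trNK-T libraries lay far apart for this gene, and leaving out a single library moved the difference between -5.91 and -2.41. Trim30a, a TRIM-family protein that restrains NF-kB signalling, was at 36.1 and 37.5, then 26.0 and 14.4, then 10.3 and 5.7 RPKM, and fell by 2.20 against trNK-V (SE 0.371, edgeR adjusted p = 0.00809). The other called members were Zbp1, Xaf1 and Irgm1, which fell by 1.81, 1.58 and 1.37 (SE 0.35, 0.343 and 0.428).

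Some members did not follow this order. Isg20 was at 26.4 and 19.3 RPKM in trNK-V, 37.2 and 32.7 in trNK-D and 28.0 and 18.8 in trNK-T, so that both trNK-D libraries lay highest. Bst2 followed the library number and not the subset, with 54.5, 70.7 and 67.8 RPKM in library 1 of the 3 subsets and 17.4, 19.9 and 15.5 in library 2. Several scarce effectors had their highest value in trNK-D library 1. Ifit3 was at 32.5 and 4.2 RPKM in trNK-V, 75.7 and 11.2 in trNK-D and 1.71 and 0 in trNK-T. Ifit2 was at 3.78 and 3.74, then 31.5 and 6.29, then 1.61 and 2.13, and Isg15 at 5.06 and 4.9, then 24.1 and 9.75, then 4.65 and 0.781. Both trNK-D libraries lay above both trNK-V libraries for Ifit2, Isg15, Isg20, Ifi27l2a, Oasl2 and Slfn1 and below them for 9 members, against 17.9% and 26.9% of all genes. Ifi27l2a was at 47.3 and 49.99 RPKM in trNK-V, 190 and 95.7 in trNK-D and 21.5 and 2.73 in trNK-T. The library with the highest Ifit3, Ifit2 and Isg15 was also the one with the highest Cd209a, and the part of this in their levels was not tested.

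The count of members called in trNK-T against trNK-V was 8 without trNK-V library 1, 8 without trNK-V library 2, 13 without trNK-T library 1 and 5 without trNK-T library 2. Of all 4683 genes, 855, 612, 862 and 418 were called in these fits. Against trNK-D the count was 0 without trNK-D library 1 or trNK-T library 2 and 1 without trNK-D library 2, where 15, 1 and 19 genes were called. The summed T cell genes were at 193 to 196 RPKM in trNK-V, 75.7 to 109 in trNK-D and 35.5 to 38.3 in trNK-T, the summed macrophage genes at 25 to 29.1, 49.2 to 49.5 and 10.3 to 16.2, and the summed neutrophil or monocyte genes at 257 to 270, 172 to 235 and 92 to 150. Of the 5 neutrophil or monocyte genes, Retnlg and S100a9 were at 0 in every subset and S100a8 at 0 in trNK-V. Cd3d, Cd3g, Trac and Trdc were called lower in trNK-T, whereas Cd4 and Cd8a were at 0 in trNK-V as well as in trNK-T. The 4 trNK genes summed to 1380 to 1390, 979 to 1170 and 644 to 799 RPKM. Whether these shifts take part in the result was not tested.

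The single cells gave a view of the members within the gate. Both matrices listed the same 15175 cells with different genes, and 8907 cells with 200 to 2500 genes and under 10% mitochondrial counts formed 13 clusters. The members were among the 62 interferon-induced genes kept out of the clustering. Clusters mix virgin and gd8.5 cells in unknown parts and are 1 sample, so levels are sums over the cells of a cluster, in counts of unique molecules (UMIs) per 1000000 UMIs of the cluster (CPM), with exact 95% Poisson intervals that cover counting error only.

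Among the cells with trNK markers, the 40 members were highest in the cluster led by Cox6a2, Cd7, Xcl1 and Tcf7, a factor of early lymphocyte states. Their sum was 2998 CPM there (2948 to 3048, 1690 cells), against 1191 (1160 to 1223, 1064 cells) in the trNK-like cluster led by Gzmc and Gzmf and 1273 (1228 to 1320, 507 cells) in the dividing cluster led by Pclaf and Ube2c. The cluster led by Mt2, Scin, Tmsb15a, Epas1 and Ctsg, which stayed unnamed by its markers, had the lowest sum of all 13 with 690 (669 to 712, 1130 cells). This value and its rank depended on the cells kept. The cluster highest in Scin had 1378 under limits on UMIs. With no upper limit it had 663, above other clusters at 642 and 627. From the Cox6a2 cluster to the Gzmc cluster 40 of 40 members were lower, 38 of them with intervals apart, against 12% of 22097 genes. From the Gzmc cluster to the Scin cluster 39 were lower, 24 with intervals apart, against 13.9% of 22041 genes. The shares over all genes, here and for the clusters below, cover every gene seen in either cluster, with no limit on level. Genes with few UMIs can hardly have intervals apart, so these shares are not matched to the members in level. The cells of these clusters also differed in depth. Median UMIs per cell were 2398 in the Cox6a2 cluster, 4640.5 in the Gzmc cluster and 5461 in the Scin cluster, and the summed UMIs of the members per cell were 8.23, 5.25 and 3.57. Without scaling, this order held for the cells kept and turned in part when cells of more than 2500 genes were kept too. The members then had 8.67 UMIs per cell in the Tcf7 cluster (2411 CPM), 8.97 in the trNK-like cluster led by Tnfsf4, Ccl1 and Gzmc (951 CPM), 11.8 in the larger dividing cluster (1138 CPM), 5.22 in the Scin cluster (663 CPM) and 10.8 in the cluster led by Ctsg, Gzmg and Dsc2 (642 CPM, 599 cells), with median UMIs per cell of 2769, 8404.5, 9025, 7416.5 and 15255. The smaller dividing cluster, led by Ube2c and Rrm2, had 6.73 (627 CPM, 342 cells), with a median of 9846 UMIs per cell.

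Single members followed the same order with different slopes. Rtp4 was at 105 CPM in the Cox6a2 cluster (96.3 to 115), 24.3 in the Gzmc cluster (20.1 to 29.2) and 3.42 in the Scin cluster (2.09 to 5.28). Igtp was at 53.7, 20.5 and 2.57, and Irf7 at 83.0, 23.5 and 8.72. The slope was shallower for Irf1, with 185 (173 to 197), 77.9 (70.1 to 86.3) and 48.6 (43.1 to 54.6), and for Gbp7, with 220, 126 and 91.9. Isg20 was at 65.7 (58.6 to 73.5) in the Cox6a2 cluster, and its intervals in the Gzmc and Scin clusters overlapped, with 41.6 (36.0 to 47.9) and 45.5 (40.2 to 51.3).

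**Figure D3:**
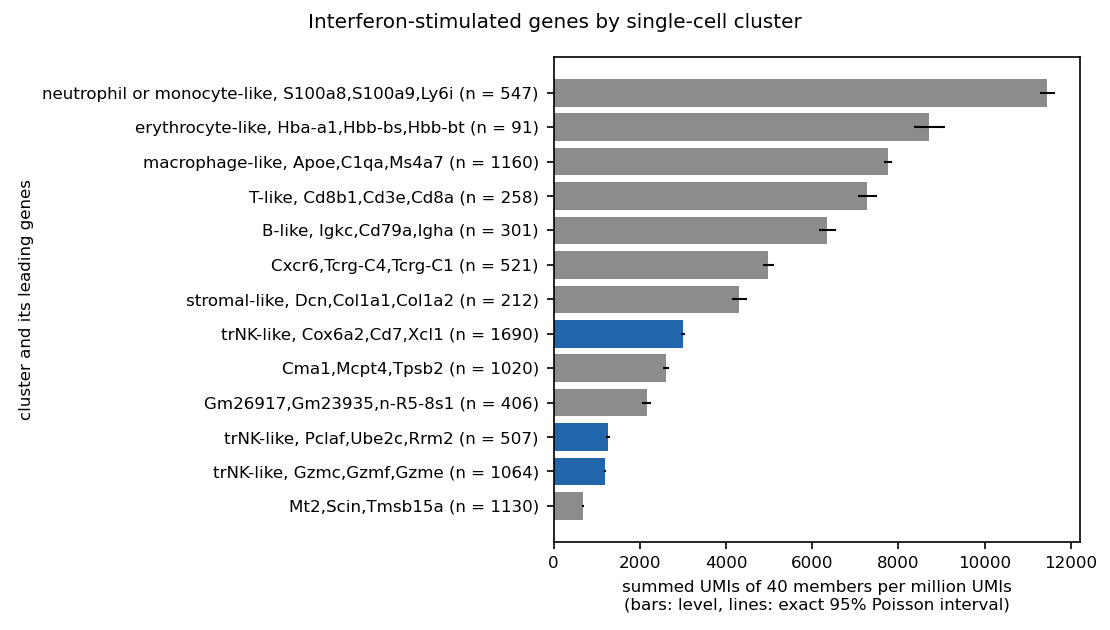
Summed level of the 40 members, in CPM, in each of the 13 single-cell clusters, named by marker class where one applied and by leading genes, with exact 95% Poisson intervals for counting error. The 3 trNK-like clusters (blue) lie between 1191 and 2998 CPM, and the cluster led by Mt2 and Scin lies below them at 690.

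Other cells caught in the gate differed from the Cox6a2 cluster in both directions. The cluster led by Cxcr6 and T cell receptor gamma genes had 4982 CPM (4852 to 5115, 521 cells), and 32 of its members were higher than in the Cox6a2 cluster with intervals apart, against 4.77% of 20460 genes. The cluster led by Cma1, Mcpt4 and S1pr5 had 2602 (2530 to 2675, 1020 cells), with 12 members lower and 4 higher than in the Cox6a2 cluster with intervals apart, against 5.62% and 6.46% of all genes. The order of these sums depended on the cells kept and on the clustering, with 2591 in this cluster against 3517 in the Tcf7 cluster under limits on UMIs, but 2570 (2501 to 2641) against 2411 (2379 to 2444) with no upper limit and 2696 (2624 to 2770) against 2588 (2551 to 2625) at a Leiden resolution of 0.4. B-like cells had 6353, T-like cells 7274, macrophage-like cells 7750 and the S100a8 and Ly6i-led neutrophil or monocyte-like cells 11455, the highest of the 13. The leading genes of this last cluster also included the dendritic cell gene Cd209a, and its name covered different cells by setting. Under limits on UMIs the name fell to 13 cells led by S100a8, S100a9 and Cxcr2 (43112). There, 145 cells led by Ly6i and Ace stayed unnamed (12324). With no upper limit no such class formed, and 505 cells led by Ifitm6 and Ly6i were named dendritic-like (9746). At a Leiden resolution of 0.4, over the same 8907 cells, the class had 13265 on 172 cells. The 91 erythrocyte-like cells stood out by Rsad2, the radical enzyme viperin, at 3148 CPM and Isg15 at 1104, against 39.9 and 57.1 in the Cox6a2 cluster. Ncr1, which encodes NKp46, was at 109 CPM in B-like cells (median 1824 UMIs) and 555 in the Cox6a2 cluster. The part of free RNA or doublets in such low levels was not tested.

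Members also differed in how their molecules were shared between cells. In the 1690 cells of the Cox6a2 cluster, the 10 cells with the most Cxcl10 held 51.6% of its 774 UMIs, and the 10 highest cells held 42.2% of the Rsad2 UMIs and 30.2% of the Ifit1 UMIs. For Irf1, Trim30a and Gbp7 the shares were 5.02%, 5.31% and 5.39%. Counts were smaller for Rsad2 (185 UMIs) and Ifit1 (232) than for Irf1 (857) and Gbp7 (1020), whereas that of Cxcl10 was close to that of Irf1.

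The 72 h culture addressed the response of trNK cells to IL-21 and its dependence on STAT3. None of the 16 tested members was called by edgeR in any of the 3 comparisons. With IL-21 alone 0.289% of all genes were called, with iSTAT3 against IL-21 2.96%, and with iSTAT3 against no IL-21 4.74%. At an unadjusted p below 0.05 there were 2, 4 and 6 members, among 382, 824 and 936 of 4158 genes. DESeq2 called 162, 445 and 583 genes, and of the members 1 (Zbp1), 2 (Zbp1 and Usp18) and 2 (Isg20 and Bst2). Of the tested members, Zbp1 and Parp9 entered the test through the IL-21 libraries alone, Xaf1 through those without IL-21 alone, Usp18, Rtp4 and Oas1a through both and Irf9 through those without IL-21 and those with iSTAT3, so their differences describe genes chosen where they were high. Without iSTAT3 library 2, the iSTAT3 library that remained held no Rtp4 counts. The log2 fold change of Rtp4 was then -12.255 against IL-21 and -12.968 against no IL-21. With both libraries it was -1.909 and -2.651. The summed member RPKM was 578 and 617 without IL-21, 491 and 547 with IL-21 and 439 and 350 with IL-21 and iSTAT3.

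Zbp1, Usp18 and Isg15 were the members whose IL-21 libraries both lay above the others. Zbp1 was at 11.4 and 9.81 RPKM without IL-21, 23.8 and 21.2 with IL-21 and 10.2 and 8.06 with iSTAT3, with log2 fold changes of 1.27 for IL-21 (SE 0.377, edgeR adjusted p = 0.266) and -1.20 for iSTAT3 against IL-21 (SE 0.376, edgeR adjusted p = 0.142). Usp18 was at 13.0 and 14.1, then 16 and 22.4, then 5.63 and 5.31, with a difference between iSTAT3 and IL-21 of -1.70 (SE 0.412, edgeR adjusted p = 0.0791). Isg15 was at 4.95 and 3.99, then 9.12 and 11.7, then 0 and 2.28 RPKM and was not tested. These 3 were the whole set of members above the control in both IL-21 libraries, of 27 with a mean above 1 RPKM, and 9 lay below, against 9.39% and 28.1% of all genes.

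The members that lay below the control with IL-21 included Isg20 and Rtp4. Isg20 was at 46.5 and 45.7 RPKM without IL-21, 28.2 and 25 with IL-21 and 10.9 and 13.3 with iSTAT3. Its groups did not overlap, and the log2 fold change of iSTAT3 against no IL-21 of -1.64 came close to the threshold (SE 0.376, edgeR adjusted p = 0.0517). Rtp4 was at 32.4 and 24.3, then 15.2 and 14.5, then 0 and 7.37 RPKM. Bst2 took the opposite course, with 29.7 and 24.1, then 31.2 and 28.0, then 58.7 and 43.8 RPKM, a log2 fold change of 1.22 for iSTAT3 against no IL-21 that did not pass (SE 0.422, edgeR adjusted p = 0.142). With iSTAT3 against IL-21, 15 of the 27 members lay below in both libraries and 3 above, against 26.5% and 17.0% of all genes. Against no IL-21 the counts were 13 and 2, against 36.0% and 12.4%. The 4 trNK genes summed to 966 to 1100 RPKM without IL-21, 313 to 367 with IL-21 and 228 to 234 with iSTAT3, and their part in these values was not tested.

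**Figure D4:**
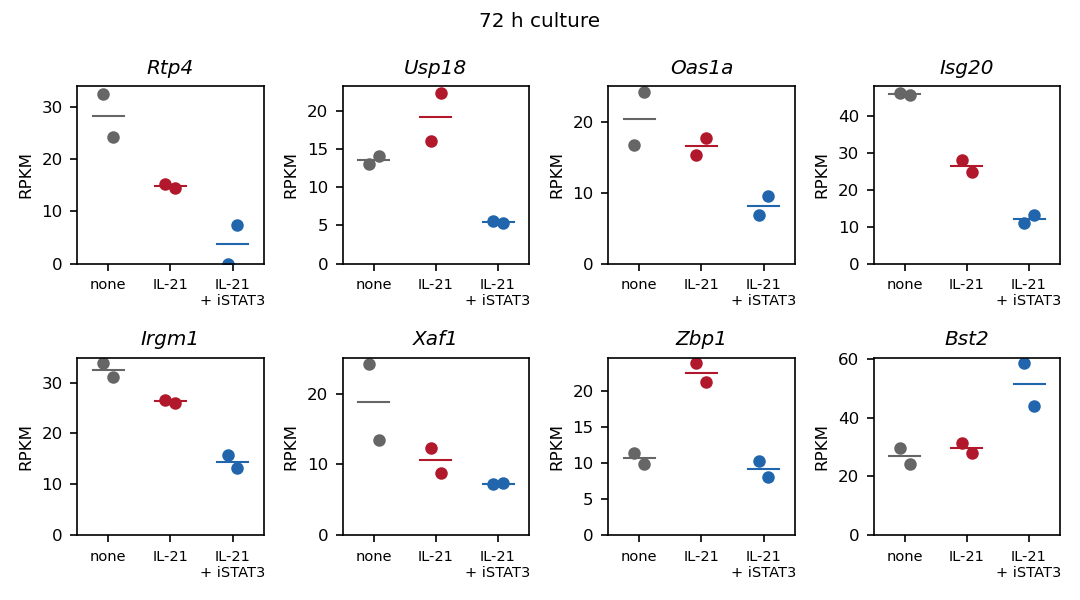
RPKM of 8 members after 72 h with no IL-21, under IL-21 or under IL-21 plus iSTAT3, with 1 point per library and a line at the mean of 2. Isg20 steps down from 46.5 and 45.7 to 10.9 and 13.3, while Zbp1 is highest with IL-21 alone at 23.8 and 21.2.

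In the time course Rtp4 was the 1 member that edgeR called with IL-21. Without IL-21 it was at 13.9 and 22.7 RPKM at 0 h, 33.5 and 23.5 at 6 h, 44.2 and 49.1 at 24 h and 48.2 and 64.5 at 72 h. With IL-21 it was at 21 and 19.7, then 11.6 and 7.68, then 10.3 and 13.8, then 56.9 and 40.3. The groups overlapped at 0 h and 72 h and did not at 6 h and 24 h. Rtp4 was lower with IL-21 at 6 h (log2 fold change -1.58, SE 0.359, edgeR adjusted p = 0.0471) and at 24 h (log2 fold change -2.05, SE 0.364, edgeR adjusted p = 0.0202). Rtp4 passed the expression filter in every group but the IL-21 cells at 6 h. It was the 1 member called of 10 tested at each of these times, when 1.97% and 1.66% of all 3503 genes were called, 1.37% and 1.31% lower. Without any single one of the 4 libraries compared, the call was lost at both times, when 9 to 16 genes were called at 6 h and 1 to 5 at 24 h. With a replicate block it was lost at 6 h. DESeq2 called 1 and 3 members, among 127 and 146 of 3503 genes, and fits of the compared groups alone called 1 of them at 6 h and 5 at 24 h, 2 higher and 3 lower with IL-21, among 244 and 367 genes. The change of the IL-21 effect between 6, 24 and 72 h did not pass for Rtp4 (edgeR adjusted p = 0.155) or for any other member, against 3.77% of all genes, with 4 members at an unadjusted p below 0.05 (598 of 3503 genes) and 2 (Rtp4 and Xaf1) by DESeq2 (387 genes). In this test of change between the times, 3 members passed without library 1 of the IL-15 cells at 72 h, 1 without library 2 of the same cells and 1 without library 1 of the IL-21 cells at 72 h, among 676, 261 and 208 genes.

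Xaf1 and Isg20 were also lower with IL-21 in both libraries at 6 h and 24 h, but did not pass. Xaf1 was at 19.8 and 18.4 RPKM at 6 h and 26.1 and 25.7 at 24 h without IL-21, against 9.5 and 11.7 and 15.9 and 14.8 with it (24 h log2 fold change -0.86, SE 0.241, edgeR adjusted p = 0.117). Xaf1 already lay lower in both IL-21 libraries at 0 h (16 and 15.6 against 18.3 and 18.1 RPKM) and lay higher in both at 72 h (26.5 and 29.1 against 24.8 and 16.7, log2 fold change 0.39, SE 0.24, edgeR adjusted p = 0.344). Isg20 was at 32.9 and 39.0 RPKM at 24 h without IL-21 and at 14.8 and 14.5 with it (log2 fold change -1.40, SE 0.449, edgeR adjusted p = 0.162). Bst2 and Usp18 lay on the other side at that time. Bst2 was at 17.3 and 12.7 against 41.6 and 32.7 RPKM with IL-21 (log2 fold change 1.20, SE 0.392, edgeR adjusted p = 0.168), and Usp18 at 3.2 and 2.76 against 13.5 and 9.25. Of 22 members with a mean above 1 RPKM, 7 lay below and 6 above with IL-21 at 24 h, against 22.7% and 34.3% of all genes, and 7 and 5 at 6 h, against 24.7% and 24.9%. The 4 trNK genes summed to 1250 to 1320 RPKM at 6 h without IL-21 and 577 to 617 with it, and to 1400 to 1500 and 866 to 898 at 24 h, with Klrb1c called lower at both times. Their part in these values was not tested.

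**Figure D5:**
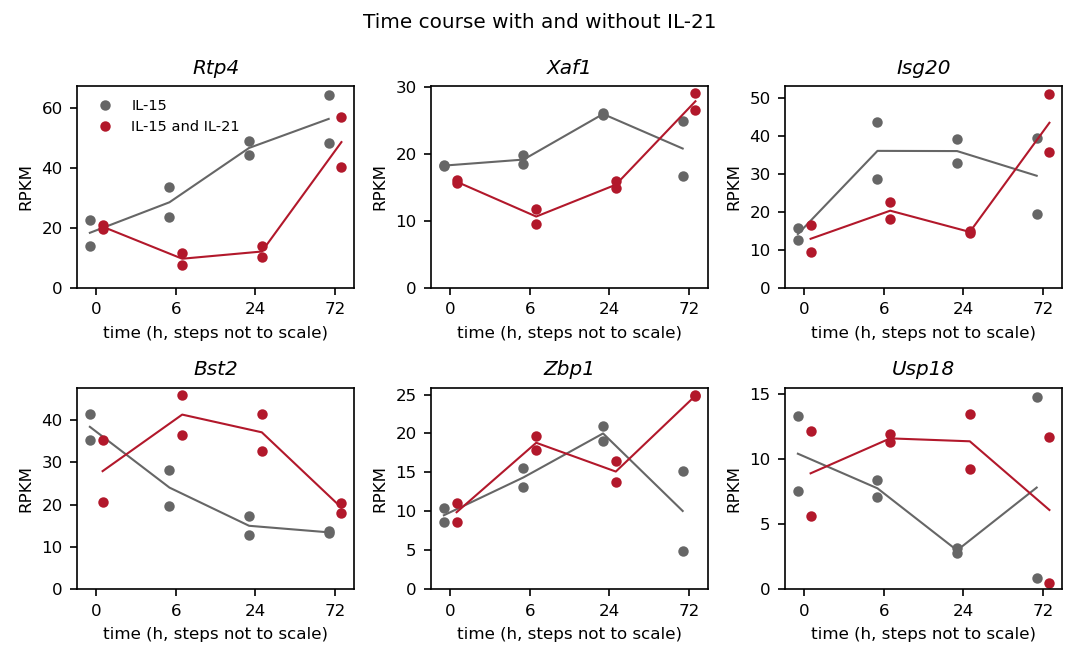
RPKM of 6 members at 0, 6, 24 and 72 h in IL-15 (grey) and in IL-15 with IL-21 (red), with 1 point per library and lines through the means of 2. Rtp4 with IL-21 lies at 7.68 to 13.8 at 6 h and 24 h and below both IL-15 libraries at each of these times, and the groups overlap at 0 h and 72 h.

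At 0 h no member and 0.0% of all genes were called, and no member had an unadjusted p below 0.05, by edgeR, with 0 calls by DESeq2. Both IL-21 libraries lay below both others for 3 of 22 members and above for 4, against 13.2% and 17.6% of all genes. At 72 h, where 8.08% of all genes were called, edgeR called none of the 10, with 1 at an unadjusted p below 0.05 (881 of 3503 genes) and 1 by DESeq2 (475 genes), both Zbp1. Zbp1 was at 15.2 and 4.87 RPKM without IL-21 and 24.8 and 24.9 with it (log2 fold change 1.31, SE 0.422, edgeR adjusted p = 0.0762). The IL-15 libraries at 72 h lay far apart for several members, such as Usp18 at 0.828 and 14.8 RPKM. Without library 1 of these, 4 members were called higher with IL-21 (Zbp1, Irgm1, Igtp and Ifi27l2a), among 712 of 3503 genes. At 72 h 7 members lay above with IL-21 and 0 below, against 21.2% and 13.5% of all genes. In IL-15 alone, edgeR called no member between 0 h and 6 h, between 6 h and 24 h or between 24 h and 72 h. There, 0.0%, 0.0856% and 14.8% of all genes were called, 1, 2 and 0 members had an unadjusted p below 0.05, among 106, 197 and 1113 genes, and DESeq2 called 0 in each, among 6, 13 and 695 genes. Without library 1 of the IL-15 cells at 72 h, 4 members were called in the last step, among 1138 of 3503 genes. From 0 h to 6 h both libraries lay above for 10 of 22 members, among them Rtp4, Isg20, Xaf1 and Irf1, and below for Bst2 and Irf9, against 23.5% and 13.7% of all genes. From 6 h to 24 h 7 lay above and 4 below, against 16.8% and 28.1%, and from 24 h to 72 h 0 lay above and 7 below, against 14.7% and 40.1%.

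Levels of the transcription factors in the time course, its 0 h libraries included, are given here as a description. Irf7 was at 0 to 2.47 RPKM across the 16 libraries and Irf1 at 3.44 to 19.2, and Rsad2 was at 0 RPKM in all 16. In the 72 h culture Irf1 was at 48.4 to 131 RPKM and Irf7 at 0.442 to 15.7. The experiments were fitted apart and no test was made between them.

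The genes upstream of the members were read from a list of 17 ligands, receptors and signalling genes and a list of 25 further interferon-induced genes. Ifnb1, which encodes interferon beta, was at 0 in all 34 libraries. Ifng, which encodes interferon gamma, was at 106 and 140 RPKM in virgin trNK cells, 25.7 and 28.0 on gd6.5 and 18.2 and 37.1 on gd8.5. It fell by 2.28 on the log2 scale at gd6.5 (SE 0.366, edgeR adjusted p = 0.0302). Of the 10 tested signalling genes, 2 were called lower at gd6.5, Ifng among them, and none higher, with a median of -0.15. Of the further interferon-induced genes, 4 of 15 tested were called lower and none higher (Ifi209, Mndal, Ddx58 and Ifi47), with a median of -0.79. Over all genes tested 3.0% were called lower, and the median was -0.02.

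In trNK-T against trNK-V, 6 of 11 tested signalling genes were called lower and none higher. Ifnar2, a chain of the type I receptor, was at 42.1 and 55.2 RPKM in trNK-V, 39.0 and 25.2 in trNK-D and 14.3 and 10.3 in trNK-T and fell by 1.98 (SE 0.288, edgeR adjusted p = 0.00541). Ifnar1, the other chain, fell by 1.48 (SE 0.344, edgeR adjusted p = 0.0201), and Jak1, Irf2, Socs1 and Ifng were the other 4. Of the further interferon-induced genes, 7 of 17 were called lower. Both counts stand beside 13.1% of all genes called lower in this comparison, and the medians of the lists were -1.19 and -0.86. Nlrc5, the activator of MHC class I genes, fell by 2.60 (SE 0.365, edgeR adjusted p = 0.00507). Ifitm3, which blocks virus entry, was the 1 called higher, at 233 and 113 RPKM in trNK-V and 378 and 384 in trNK-T (log2 fold change 1.15, SE 0.312, edgeR adjusted p = 0.0317). Against trNK-D, Sp100 and Ifi209 of the same 17 further genes were called lower, where 1.75% of all genes were called and 1.41% were called lower. No gene of either list was called between trNK-D and trNK-V or at gd8.5 against virgin or gd6.5 cells.

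In the 72 h culture Ifng was the 1 gene of both lists called with IL-21, where 0.289% of all genes were called. It was at 12 and 22.1 RPKM without IL-21, 354 and 363 with IL-21 and 176 and 305 with IL-21 and iSTAT3, and was higher than without IL-21 by 4.58 (SE 0.475, edgeR adjusted p = 0.0136) and 4.11 (SE 0.464, edgeR adjusted p = 0.00584) on the log2 scale. In the time course Ifng was at 39.9 and 31.9 RPKM at 6 h without IL-21 and 172 and 205 with it, and was not called. Ifi209, an interferon-induced DNA-binding protein, was at 57.4 and 60.3 RPKM at 24 h without IL-21 and 21.8 and 19.8 with it, and was lower by a log2 fold change of -1.60 (SE 0.222, edgeR adjusted p = 0.00821). It was the 1 called of 12 tested further genes at 24 h, where 1.66% of all genes were called and 1.31% were called lower. Its IL-21 effect differed between 6, 24 and 72 h (edgeR adjusted p = 0.00808), a test that 3.77% of all genes passed. At 72 h, where 8.08% of all genes were called, Gbp4 and Ly6e of these 12 and Ifnar2 of 4 tested signalling genes were called higher with IL-21.

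Counts of near-identical genes carry an added uncertainty. Ifit3 and Ifit3b, the Oas1 and Gbp families and Mx1 and Mx2 share sequence, and Parp9 and Dtx3l overlap on opposite strands of chromosome 16. Where reads of such genes were split or left out in counting, their levels could change.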

How the data were processed

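The authors made cDNA of sorted cells with SMART-Seq HT and NEBNext libraries and aligned the reads to mm10 with HISAT2 (2.1.0 in the submitters' processing notes). The methods name RSEM for quantification, whereas the notes name Subread and featureCounts. The values the authors deposited are whole-number counts per gene with gene lengths, without normalization. For the single cells they deposited tables of UMI counts, with cells by genes, made by the BD Rhapsody pipeline on GRCm39. Strand settings and the handling of multi-mapped reads are not given in the sources used here.

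From these counts, RPKM were computed over the 54353 genes shared by all libraries. Each experiment was fitted with edgeR 4.0.16 (TMM, quasi-likelihood test, all its groups, no covariates), after the study's filter of a level over 10 RPKM in each library of at least 1 group. The same fit was also run on simulated counts, and the outcome is not reported here. The study names limma for its comparisons, which was run as limma-voom 3.58.1, beside DESeq2 1.42.0. Counts had 2 libraries per group and 11861343 to 66462748 reads, without molecular identifiers, so replicate spread limits the precision. Single cells were clustered with scanpy 1.11.5 on 2000 variable genes, 20 components and 20 neighbours. Clusters of other cell types than NK cells were named where markers stood 3-fold above other cells. The trNK-like name asked only that Ncr1, Klrb1c, Eomes and Itga1 stood 2-fold above the B-like cells. The study's limits of 200 and 2500 were read as genes per cell, since as UMIs per cell they keep fewer cells. No doublet caller was run.

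The members, gene lists and tests were chosen with earlier results of these data known. All members are accounted for, and those described singly are the called ones, those with the largest differences and examples of each role. Some genes of the other lists are not reported here.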

Additional observations from a re-analysis of the deposited data

How the results depend on the processing

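With 2 libraries per group, the counts of called members moved with the processing, and the cause was not tested. RLE size factors, those of DESeq2, kept the count of called members in all 17 comparisons within 1.5 times, and limma-voom did so in 14. Most of the 17 counts were 0 in the main fit, and a count of 0 in both fits was taken as within. Of the fold changes of the named members, 944 kept direction and side of the threshold over the alternatives, 53 kept direction and came to pass the threshold, 76 kept direction and lost it and 26 changed sign, each of these with a library left out. The named members were the called ones and those with the largest rises and falls in the main fit. These counts thus do not give how stable the direction was over all members. Most named members were not called in the main fit, and staying uncalled was taken as keeping the side. At gd6.5 against virgin cells the count was 22 with no filter (919 of 23601 genes), 5 with a filter on the mean RPKM (197 of 4281), and 0 with a replicate block (2 genes) or with only the groups compared (0 genes). At gd8.5 it was 2 by DESeq2 (164 genes) and 7 with no filter (502) against virgin cells, and 2 by DESeq2 (221), 7 with no filter (452) and 2 with only the groups compared (249) against gd6.5. With no filter, against trNK-V, it was 4 in trNK-D, all higher (Slfn1, Ifi27l2a, Ifit2 and Ifit3, among 471 of 26220 genes), and 20 in trNK-T, 19 lower and Slfn1 higher (among 2022 genes). In trNK-T against trNK-D it was 10 by DESeq2 (326 genes), 17 with no filter (587), 7 with a replicate block (151) and 0 by limma-voom (61), with the mean filter (37) and with only the groups compared (30). In the 72 h culture DESeq2 gave 1 for IL-21 (162 genes), 2 for iSTAT3 against IL-21 (445) and 2 for iSTAT3 against no IL-21 (583), the last with 1 by limma-voom (270) and 2 with no filter (653 of 21257). In the time course IL-21 gave 0 at 6 h with a replicate block (57 genes), 3 by DESeq2 (146) and 5 with only the groups compared (367) at 24 h, and 1 by DESeq2 (475), 1 by limma-voom (348) and 7 with no filter (1518 of 26386) at 72 h. No filter gave 4 between 24 h and 72 h without IL-21 (1829), and the change of the IL-21 effect gave 2 by DESeq2 (387) and 6 with no filter (840).

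No label ties a replicate number to an animal, litter or day. Same-numbered deviations correlated at -0.31, 0.11 and -0.03 in gestation, 0.12, -0.01 and 0.39 in the subsets and 0.54, -0.38 and -0.43 in the 72 h culture, and at -0.34 to 0.41 in the time course. They did not all lie above 0.1, so the block is given as an alternative. The block left 14 of the 17 counts within 1.5 times, most of them with no called member in either fit. The counts that moved were those at gd6.5 against virgin cells, in trNK-T against trNK-D and for IL-21 at 6 h.

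Without 1 library at a time, the count ranged from 0 to 13 at gd6.5 and 0 to 4 at gd8.5 against virgin cells, 5 to 13 in trNK-T against trNK-V, 0 to 2 against trNK-D, 0 to 1 in both iSTAT3 comparisons, 0 at 6 h and at 24 h, 0 to 4 at 72 h and between 24 h and 72 h, and 0 to 3 for the change of the IL-21 effect. The log2 fold changes that changed sign ranged from -0.183 to 0.081 for Irf1 (gd8.5 against gd6.5), -0.68 to 3.36 for Ifit3 (trNK-D against trNK-V), -1.19 to 1.26 for Bst2 and -0.26 to 0.30 for Isg20 (trNK-T against trNK-V), -0.17 to 0.76 for Gbp3 and -0.018 to 1.22 for Irf9 (iSTAT3 against IL-21), and -0.33 to 0.68 for Irf1 and -0.16 to 0.78 for Irf9 (iSTAT3 against no IL-21). With IL-21 they ranged from -0.081 to 0.638 for Rtp4 and -0.73 to 0.29 for Usp18 at 0 h, and from -0.60 to 0.03 for Rtp4, -0.82 to 0.79 for Trim30a and -3.998 to 2.73 for Usp18 at 72 h. Without IL-21 they ranged from -5.21 to 9.16 for Ifi27l2a and -0.625 to 0.012 for Trim30a between 0 and 6 h, and from -0.95 to 0.46 for Igtp, -0.35 to 1.27 for Trim30a and -1.61 to 2.77 for Usp18 between 24 and 72 h.

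In the single cells the summed level moved with the cells kept and with the clustering. The neutrophil or monocyte-like class, at 11455, did not hold the same cells in each setting. It had 43112 on 13 cells with limits on UMIs, did not form with no upper limit, and had 13265 at a Leiden resolution of 0.4. The Ly6i-led cells lay outside this class with limits on UMIs (12324) and with no upper limit (9746). No macrophage-like class formed under any of these 3 alternatives. With the limits applied to UMIs and with no upper limit the summed level was 6810 and 5409 CPM in B-like, 8228 and 6221 in T-like and 2853 and 1440 in trNK-like cells. It was 3517 and 2411 in the trNK-like cluster highest in Tcf7 and 5167 and 4814 in that highest in Cxcr6. It was 2591 and 2570 in the cluster highest in S1pr5 and 1378 and 663 in that highest in Scin. At a Leiden resolution of 0.4 it was 2291 in trNK-like cells, 2588, 2696 and 753 in the clusters highest in Tcf7, S1pr5 and Scin.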
